A study of Zingiber officinale with 6 samples.

Results

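LOC121967395 is a ginger gene on chromosome 3B (116825630 to 116828442 of the Zo_v1.1 assembly), predicted to encode a 6(G)-fructosyltransferase-like protein. It was taken as 1 gene of the 55601 in the deposited tables, by its row identifier, and it had been selected on its measured expression, as a gene with higher counts and FPKM in exposed than in control plants. Its own levels are therefore given as a description, with no test.

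Leaf blades of the 2 uppermost leaves were taken in 6 samples from ginger plants (Zingiber officinale, Laiwu variety, derived from tissue culture) at 21 days. In the Po-VOCs group (3 samples), plants stood 1 to a pot in sealed pots above jars in which the oomycete Pythium oligandrum GAQ1 grew on V8 agar, so that its volatile organic compounds (Po-VOCs) reached the roots. In the control group (3 samples), plants stood above jars with V8 agar alone. Each sample gave 1 library with 13695463 to 14662442 counts on genes. The study describes the samples as single plants. The reads of Laiwu plants were mapped to the assembly of another variety, Zhangliang, which lists each of 11 chromosome numbers in an A and a B copy. The A and B copies may be haplotypes, the parental sets of chromosomes, so an A and a B gene may be alleles of the same locus. This was not tested, and such genes are counted here separately. Control plant 3 stood apart from the other plants on the second principal component (-58.1, against -4.17 to 35.6), so values without it are given where it moved a result. The leaf identity could be checked only weakly: the plastid genes psbA and rbcL were present at 5.98 to 57.2 and 0.338 to 6.56 FPKM (fragments per kilobase of gene length, scaled to the library total), and psaA was nearly absent at 0 to 0.0316 FPKM, in libraries made from polyadenylated RNA. The chlorophyll a-b binding protein gene LOC122029873 (CP24) was at 35.8 FPKM in exposed plant 1 but only 0.214 to 2.22 FPKM in the other plants. It was available because the study had called it higher, and other genes of its kind were not examined. Its level therefore does not show how strongly such genes were expressed in these leaves.

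The protein family of LOC121967395 is glycoside hydrolase family 32 (GH32). Its invertases, also called beta-fructofuranosidases, split sucrose into glucose and fructose, either in the vacuole or, in an insoluble form, at the cell wall. Its fructosyltransferases resemble vacuolar invertases and pass fructose from one sugar to another, which builds fructans, the vacuolar reserve of plants such as onion. The 6(G)-fructosyltransferases, known from onion and asparagus, attach fructose to the glucose of sucrose. The names in the annotation are predictions that do not settle which reaction the protein carries out. For LOC121967395 they differ among themselves, since the closest banana protein is described as beta-fructofuranosidase 1-like and the assigned symbol is IVR1, a name used for a maize invertase. No sugar, fructan or enzyme activity is among the data analysed here.

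LOC121967395 was weakly expressed in control plants and moderately expressed in exposed plants. Its level was 0.951, 1.29 and 1.69 FPKM in control plants 1, 2 and 3, from 29, 40 and 52 counts. In exposed plants 1, 2 and 3 it was 17.4, 11.0 and 8.65 FPKM, from 517, 352 and 264 counts. The lowest exposed plant stood well above the highest control plant, and exposed plant 1 was the highest of all. The means were 1.31 ± 0.371 FPKM in the control group and 12.4 ± 4.51 FPKM in the Po-VOCs group (SD, n = 3 each), a ratio of 9.43.

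Taken plant by plant, the 9 ratios of an exposed to a control plant ran from 5.11 (exposed plant 3 over control plant 3) to 18.3 (exposed plant 1 over control plant 1), with a median of 9.09. The spread within a group was smaller, since the highest plant exceeded the lowest by 1.78-fold among controls and 2.01-fold among exposed plants. The counts bound each level only in part. The exact 95% Poisson interval was 0.637 to 1.37 FPKM in control plant 1 and 7.64 to 9.76 FPKM in exposed plant 3, and these intervals cover counting error only. Plants of the exposed group varied by 36.5% (coefficient of variation) where counting alone gives 5.15%, and control plants by 28.3% where counting gives 15.7%. The gene moved from a level above 37.3% of the 55601 genes in control plants to one above 80.3% of them in exposed plants. In bulk leaf RNA, more cells that express a gene and more RNA per cell cannot be told apart.

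The fitted log2 fold change of LOC121967395 from edgeR was 3.21. It stayed between 2.96 and 3.41 with any single library left out, and it was 3.41 without control plant 3. Across the 41508 genes that passed the filter on low counts, 1.09% were called higher in exposed plants by edgeR, and 14.5% had exposed levels that did not overlap the control levels and lay above them. These shares are the background of the contrast on which LOC121967395 was chosen.

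**Figure D1:**
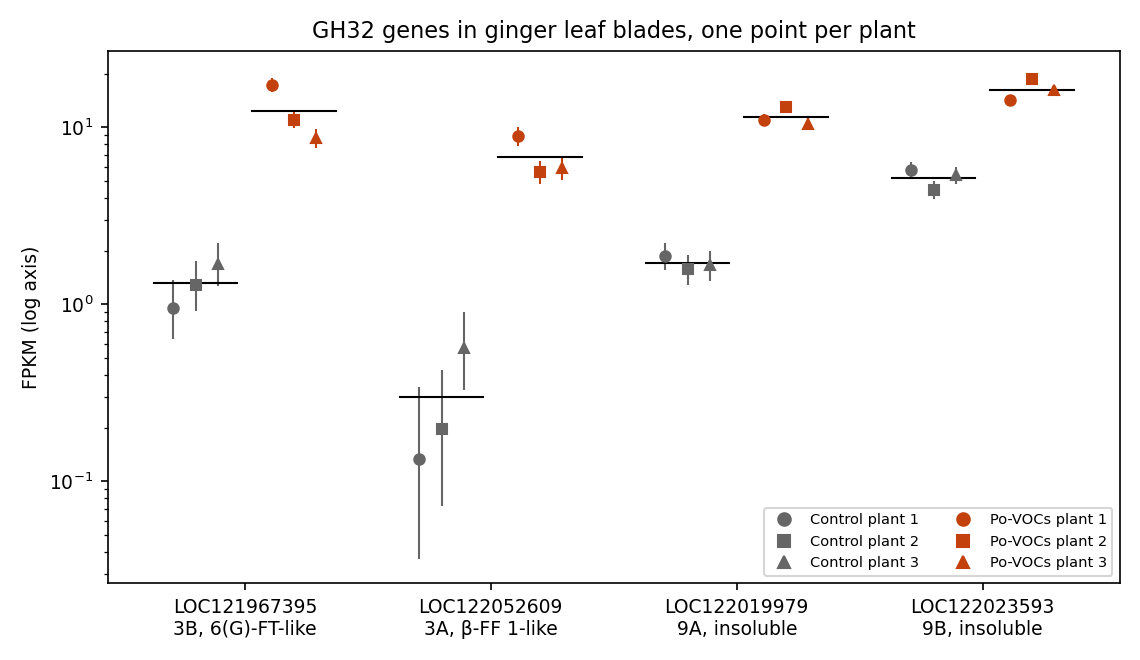
FPKM (log axis) of LOC121967395 and 3 other GH32 genes in each of the 6 plants, with exact 95% Poisson intervals as bars and the group mean as a horizontal line. In LOC121967395 the control plants lie between 0.951 and 1.69 FPKM and the exposed plants between 8.65 and 17.4, and in no GH32 gene shown do the groups overlap.

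To place LOC121967395 within its family, the other genes carrying the GH32 N-terminal domain were sought in the study's annotation. The 1517 annotated genes used here had all been called higher in exposed plants by the study, and 3 of them besides LOC121967395 carry the domain. GH32 genes that fell or did not change are therefore not among them, and the direction of these relatives is a description and not independent evidence. LOC122052609 (beta-fructofuranosidase 1-like, chromosome 3A, 142916782 to 142919558) shares with LOC121967395 a further N-terminal domain of unknown function that marks soluble, vacuolar-type invertases. LOC122019979 (chromosome 9A, 102719782 to 102724833) and LOC122023593 (chromosome 9B, 91715902 to 91720655) lack that domain, and both are named insoluble isoenzyme 3-like, the name of a cell wall invertase.

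LOC122052609 was almost silent in control plants, at 0.134, 0.196 and 0.563 FPKM from 4, 6 and 17 counts. It reached 8.93, 5.56 and 5.87 FPKM in exposed plants 1, 2 and 3, from 261, 174 and 176 counts. As in LOC121967395, control plant 3 was the highest control and exposed plant 1 the highest of all. Its means were 0.298 ± 0.232 and 6.78 ± 1.86 FPKM (SD, n = 3 each), and its fitted log2 fold change of 4.48 became 5.29 without control plant 3.

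The cell wall type genes started from a higher level. LOC122019979 had 1.87, 1.58 and 1.66 FPKM in control plants and 11.0, 13.0 and 10.5 FPKM in exposed plants, a log2 fold change of 2.75. LOC122023593 had 5.76, 4.43 and 5.34 FPKM in control plants and 14.2, 18.7 and 16.1 FPKM in exposed plants, a log2 fold change of 1.66. In both, exposed plant 2 was the highest, where exposed plant 1 was the highest in LOC121967395 and LOC122052609.

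By level in control plants, LOC122023593 stood first, then LOC122019979, LOC121967395 and LOC122052609. The ranges of LOC122019979 and LOC121967395 overlapped, and those of the other neighbours in this order did not. In exposed plants the order was LOC122023593, LOC121967395, LOC122019979 and LOC122052609. There LOC121967395 overlapped with both of its neighbours, while LOC122052609 lay below the range of LOC122019979.

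Summed over both vacuolar-type genes, the level was 1.61 ± 0.596 FPKM in control plants and 19.1 ± 6.29 FPKM in exposed plants (SD, n = 3 each). Summed over both insoluble genes it was 6.88 ± 0.814 and 27.8 ± 3.39 FPKM. Each sum is over an A and a B gene, which may be alleles of the same locus. The vacuolar-type genes thus held 12.5 to 24.4% of the summed level of the 4 genes in control plants and 34.4 to 51.0% in exposed plants. The highest of these shares was in exposed plant 1, and the ranges of the groups did not overlap. The shift follows from the larger log2 fold changes of the vacuolar-type genes (3.21 and 4.48, against 2.75 and 1.66). It holds the values on which LOC121967395 was chosen and genes the study had called higher, so it is a description and was not tested.

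LOC121967395 and LOC122052609 lie among genes of like spans on chromosomes 3B and 3A. Genes were matched by span and order alone, and how often such matches arise between unrelated regions was not tested. Genes of like span (within 15%) follow each other in the same order on both chromosomes, with 4 matched genes before the GH32 gene and 4 after it and unmatched genes between some of them, and the GH32 genes themselves differ by 1.28% in span. The insoluble genes on 9B and 9A, whose spans differ by 5.90%, likewise sit in matching order. No sequence was compared, so it is not known whether the genes of a pair are alleles of the same locus or separate loci. Nor is it known how many reads fit both genes of a pair equally well. How such reads were counted is not stated in the sources used here.

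Within each pair the chromosome A gene took a larger share of the counts in exposed plants. Of the counts on LOC122052609 and LOC121967395 together, LOC122052609 held 12.1%, 13.0% and 24.6% in control plants 1, 2 and 3, and 33.5%, 33.1% and 40% in exposed plants. The Wilson 95% interval of control plant 3 (16.0 to 36.0%) overlapped those of exposed plants 1 (30.3 to 36.9%), 2 (29.2 to 37.2%) and 3 (35.5 to 44.6%), so the groups were apart in their values but not in every interval. On the log2 scale, the ratio of the 3A to the 3B gene in FPKM was -2.38 ± 0.69 in control plants and -0.84 ± 0.24 in exposed plants (SD, n = 3 each), a difference of 1.54. With single libraries left out, this difference ranged from 1.31 (without control plant 1) to 1.93 (without control plant 3). LOC121967395 had been chosen on these values, so the difference is a description.

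The pair on chromosome 9, chosen for this comparison after its values had been seen, had more counts. LOC122019979 held 25.6%, 27.4% and 24.8% of the pair's counts in control plants and 45.1%, 42.5% and 40.8% in exposed plants. The log2 ratio of the 9A to the 9B gene was -1.60 ± 0.10 in control plants and -0.50 ± 0.13 in exposed plants (SD, n = 3 each). The difference was 1.095 and ranged from 1.03 to 1.15 with single libraries left out. It is given as a description, since the separation of the groups was known when the pair was chosen.

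**Figure D2:**
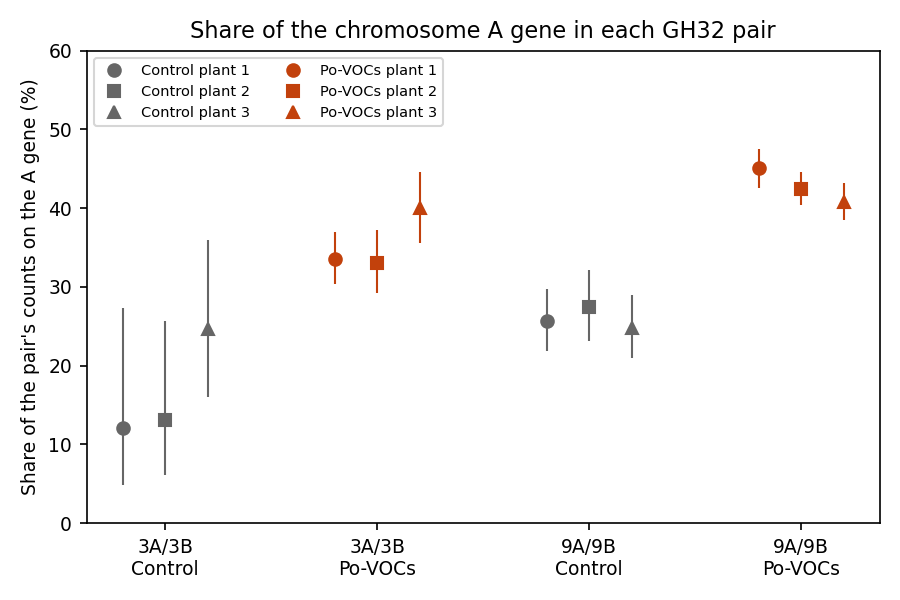
Share (%) of each GH32 pair's counts that fell on the chromosome A gene, for each plant, with Wilson 95% intervals. The 3A gene holds 12.1 to 24.6% of its pair in control plants and 33.1 to 40% in exposed plants, and the 9A gene 24.8 to 27.4% and 40.8 to 45.1%.

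To see whether other genes around LOC121967395 differed between the groups, the 5 annotated genes on either side were tested with all others. They have no description in the annotation used here. The nearest one before LOC121967395 ends 127.5 kb away and the nearest one after it starts 59.1 kb away. Of these 10 genes, 8 have a row in the tables, 6 passed the filter on low counts, and 0 were called. A call was a gene that passed edgeR's quasi-likelihood test (adjusted p under 0.05) with a log2 fold change over 1 in either direction and more than 1 FPKM on average in the higher group, and 2.11% of all tested genes met it. An unadjusted p under 0.05 was found for 0 of the 6 neighbours, against 20.2% of all tested genes. DESeq2 called 0 of them, against 5.56% of all 55601 genes. The DESeq2 shares were taken without the filter on low counts, so they are not on the same base as the edgeR shares.

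LOC121967394, the last gene before LOC121967395, was the most strongly expressed of these neighbours. It had 30.5, 26.4 and 22.9 FPKM in control plants and 28.8, 23.6 and 22.7 FPKM in exposed plants. Its log2 fold change was -0.11 ± 0.18 (standard error), with an edgeR adjusted p of 0.788. The groups overlapped throughout. LOC121967398, the first gene after LOC121967395, had 5.15, 5.84 and 6.11 FPKM in control plants and 6.42, 7.76 and 7.72 FPKM in exposed plants. The ranges did not overlap, but the log2 fold change of 0.36 ± 0.19 did not pass the test, at an edgeR adjusted p of 0.352. LOC121967391, LOC121967393 and LOC121967392 had log2 fold changes of 0.71, 0.35 and 0.01 with standard errors of 0.52, 0.27 and 0.19. The value of LOC121967391 was 1.36 without control plant 3 and 0.36 without control plant 1, that of LOC121967393 was 0.57 without control plant 2 and 0.20 without control plant 1, and neither gene was called in any of these fits.

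Around LOC122052609 on chromosome 3A, 5 of the 10 neighbours could be tested and edgeR called 0 of them, against 2.11% of all tested genes. DESeq2 called 0 of these 5, against 5.56% of all 55601 genes. An unadjusted p below 0.05 was found for 2 of the 5, against 20.2% of all tested genes. These were LOC122052607 and LOC122052605, with lower means in exposed plants. LOC122052605 had 7.80 ± 1.37 FPKM in control plants and 3.77 ± 1.85 FPKM in exposed plants (n = 3 each, SD). Its log2 fold change of -1.09 ± 0.37 had an edgeR adjusted p of 0.165, while its match by order on chromosome 3B, LOC121967392, stood at 0.01 ± 0.19.

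**Figure D3:**
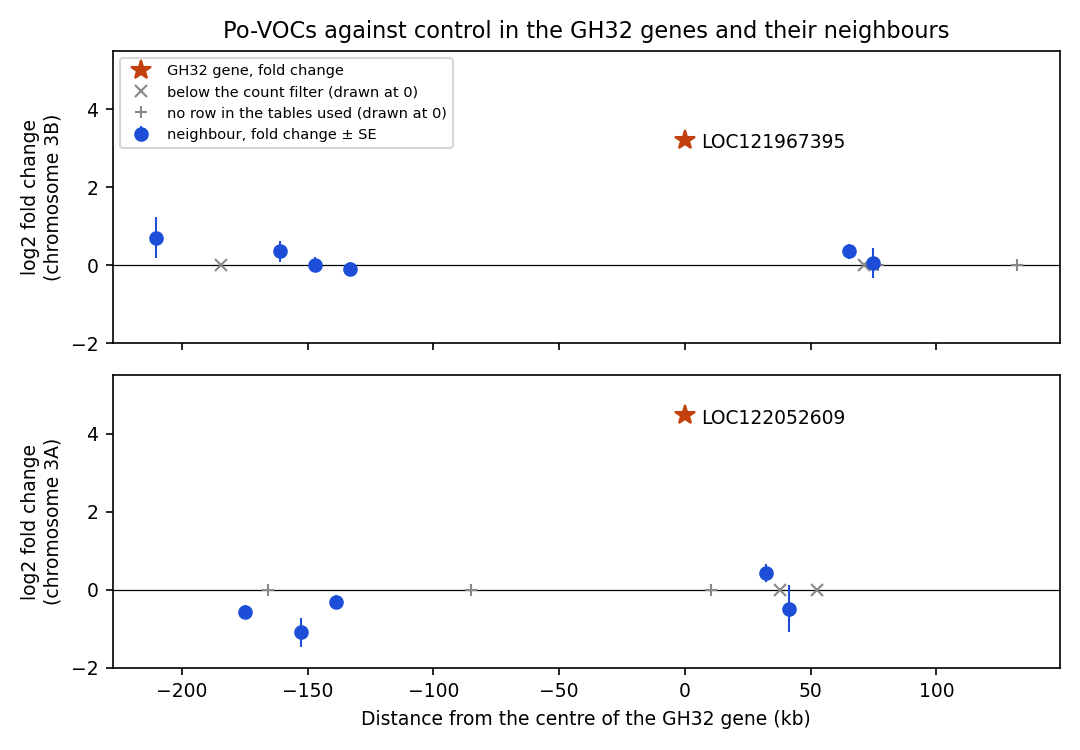
Fitted log2 fold change of the GH32 gene (star, given without error) and of its 5 annotated neighbours on each side (points, ± standard error), with untested neighbours as grey marks at 0, by distance from the centre of the GH32 gene in kb, on chromosome 3B (top) and 3A (bottom). LOC121967395 stands at 3.21 and LOC122052609 at 4.48, while the tested neighbours lie between -1.09 and 0.71.

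The genes whose pattern over the 6 plants was most like that of LOC121967395 were found among the other 41507 genes by the root mean square difference of log2 CPM (counts scaled to library size, each gene centred on its own mean). The difference between the groups dominates this measure. The nearest was LOC121983941 (BOI-related E3 ubiquitin-protein ligase 1-like, chromosome 5B), at a distance of 0.148, with 2, 3 and 6 counts in control plants and 58, 38 and 27 in exposed plants. It kept the plant order of LOC121967395 within both groups, at far fewer counts. LOC122016744, an uncharacterized protein on chromosome 8B, followed at 0.192, with 31, 47 and 60 counts in control plants and 554, 348 and 398 in exposed plants.

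LOC121970477 (uncharacterized, chromosome 1B) lay at 0.217, LOC122039840 (transcription factor MYB86-like, chromosome 2A) at 0.229 and LOC122029753 (leucine-rich repeat receptor protein kinase HPCA1-like, chromosome 10B) at 0.231. In these 5 genes, as in LOC121967395, exposed plant 1 was the highest plant. Choosing genes by likeness of profile favours this, so it is no separate observation. The GH32 relatives were farther off, with LOC122019979 at 0.466, LOC122052609 at 0.699 and LOC122023593 at 0.884, ranks 67, 263 and 648 in nearness.

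**Figure D4:**
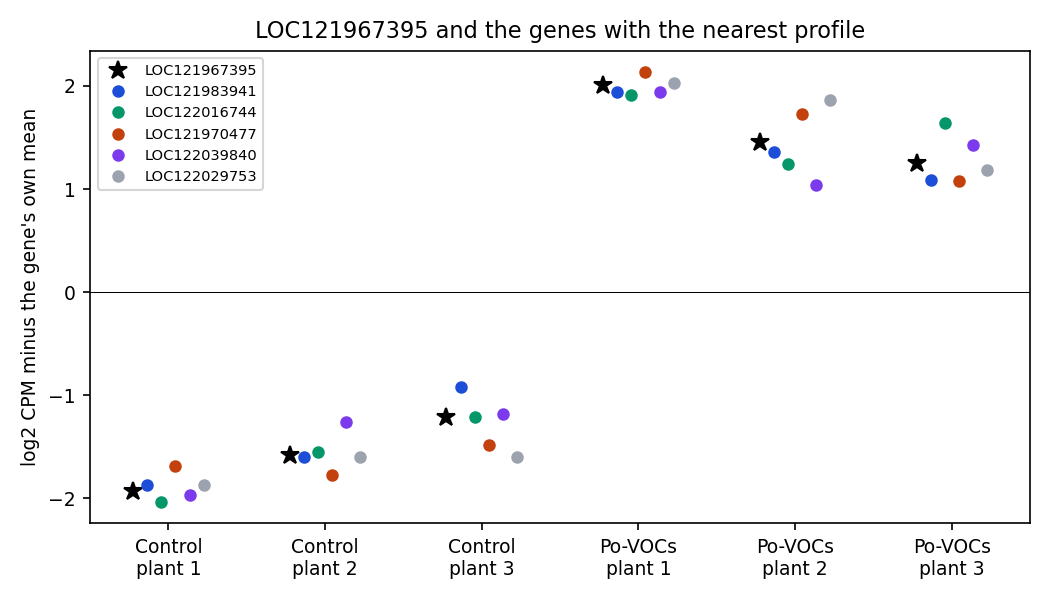
Log2 CPM minus the gene's own mean in each of the 6 plants, for LOC121967395 (black star) and the 5 genes with the nearest profile (points), whose root mean square distances run from 0.148 to 0.231. In each of the 6 genes all control plants lie below 0, all exposed plants above it, and exposed plant 1 is highest, a likeness for which the 5 genes were chosen.

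Beside GH32 enzymes, sugar metabolism includes hexose uptake, trehalose-phosphate signalling and starch formation, and the annotation used here names 16 genes of these steps. Hexose transporters carry glucose and fructose into cells, trehalose-phosphate synthases make the sugar signal trehalose-6-phosphate and trehalose-phosphate phosphatases remove it, and starch synthases and branching enzymes build starch. The study had called all 16 higher on these libraries, with DESeq2. That choice fixed their direction and their DESeq2 calls and set a lower limit on the size of their differences. Nothing is read from the counts that follow. Of the 16, edgeR called 2 higher and 0 lower over all genes tested, where 1.09% of all tested genes were called higher. All 16 had an unadjusted p below 0.05, as did 20.2% of all tested genes. DESeq2 called all 16, as the choice implies, where it called 3.02% of all 55601 genes higher. The median log2 fold change was 2.14, against 0.01 over all genes tested. In 11 of the 16 the groups did not overlap, against 14.5% of all tested genes that were higher without overlap. The number of edgeR calls moved with single libraries. It was 6 without exposed plant 1, 1 without control plant 3 and 0 without control plant 1, control plant 2, exposed plant 2 or exposed plant 3. The 2 genes called with all libraries kept their calls only in the fit without exposed plant 1, among the 6 fits that left out a library.

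Both called genes were highest in exposed plant 3. The study had already called them higher on these libraries, so their edgeR calls are a description and not independent evidence. LOC122035323 (hexose transporter MST3-like) had 5.02, 10.9 and 6.16 FPKM in control plants and 27.0, 33.2 and 43.3 FPKM in exposed plants. Its log2 fold change was 2.25 ± 0.36. LOC121985543 (probable trehalose-phosphate phosphatase 6) had 0.990, 0.647 and 1.17 FPKM in control plants and 3.09, 5.91 and 7.34 FPKM in exposed plants. Its log2 fold change was 2.56 ± 0.45.

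Exposed plant 1, the highest plant for LOC121967395, was also the highest exposed plant in all 4 starch branching enzyme genes, both starch synthase genes and both trehalose-phosphate synthase genes. It was the highest in 0 of the 6 trehalose-phosphate phosphatase genes and 0 of the 2 hexose transporter genes. The branching enzyme, trehalose-phosphate synthase and phosphatase genes lie on A and B copies of the same chromosome numbers. They may be alleles, so these counts may cover fewer loci. The share of all genes that were highest in exposed plant 1 was not counted, so nothing is read from these counts. In the starch synthase gene with the higher level, LOC121971306 (granule-bound starch synthase 1b), exposed plants 1, 2 and 3 had 51.8, 4.92 and 0.231 FPKM against 0.655 to 0.891 FPKM in control plants. In the trehalose-phosphate synthase gene with the higher level, LOC122014922, they had 15.95, 12.8 and 8.62 FPKM, against 1.34 to 5.76 FPKM in control plants. In the branching enzyme gene with the highest level, LOC121970244, they had 34.8, 22.3 and 13.0 FPKM against 3.55 to 8.82 FPKM. The chlorophyll a-b binding protein gene LOC122029873 (CP24, of the light-harvesting antenna of leaves), also among the genes the study had called higher, set exposed plant 1 apart as well. It had 35.8 FPKM there, 0.755 and 2.22 FPKM in exposed plants 2 and 3 and 0.214 to 0.844 FPKM in control plants. Its part in the level of LOC121967395 in that plant was not tested. Without exposed plant 1 the log2 fold change of LOC121967395 was 2.96.

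**Figure D5:**
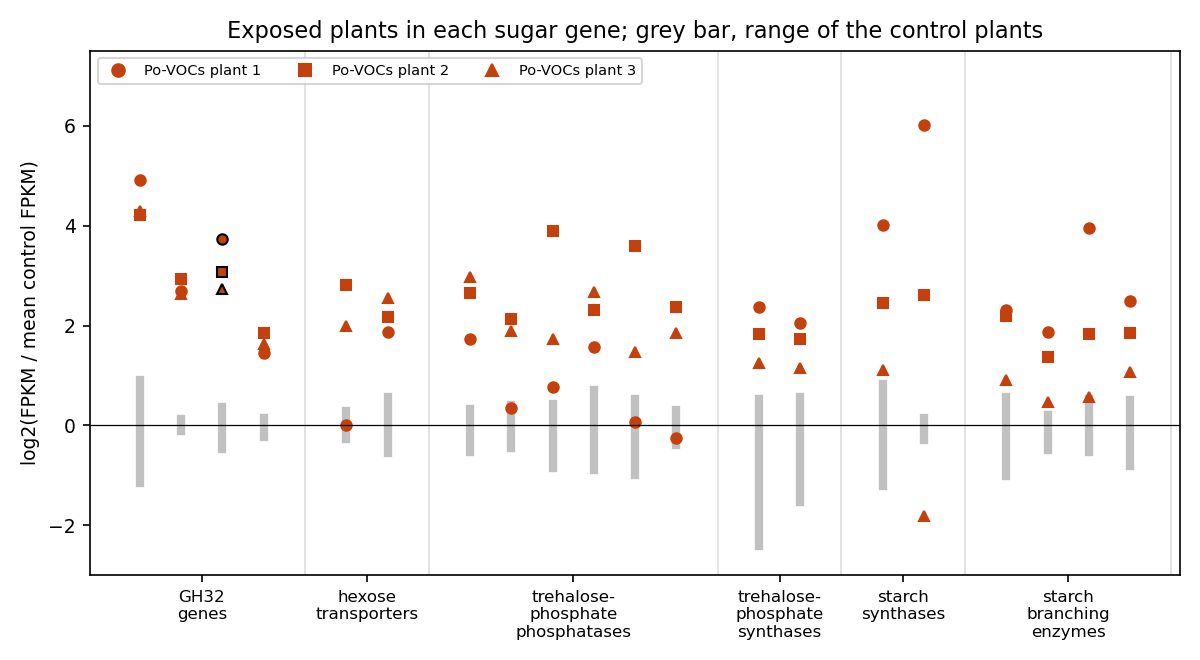
Log2 ratio of FPKM in each exposed plant to the mean of the control plants, for 4 GH32 genes (LOC121967395 outlined in black) and 16 genes of sugar transport, signalling and starch formation, with the range of the control plants as grey bars. Exposed plant 1 (circles) is highest in LOC121967395, in all 4 branching enzyme genes and in both starch synthase genes, and it is highest in 0 of the 6 trehalose-phosphate phosphatase genes. Some of these genes may be alleles of the same locus, and the share over all genes was not counted.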

How the data were processed

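RNA-seq libraries from leaf blades of ginger, 3 control and 3 Po-VOC-exposed samples, were analysed, grouped by the sample labels. According to the methods, the authors trimmed 150-bp paired-end reads with Trimmomatic, mapped them with HISAT2 to Zo_v1.1 and counted them per gene with HTSeq-count. The deposited counts are whole numbers without normalization. The deposited FPKM values, which the methods attribute to Cufflinks, equalled the count divided by 1 length per gene and by the library total for 100% of values above 0, within 0.1%, so both tables hold the same measurement. The versions of these tools and the counting mode are not stated in the sources used here. All 55601 identifiers were found in the RefSeq annotation.

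Counts were analysed with R 4.3.3 and edgeR 4.0.16 (filterByExpr with minimum count 10 and minimum total 15, TMM, quasi-likelihood test, Benjamini-Hochberg adjustment over 41508 genes). The call thresholds (adjusted p below 0.05, absolute log2 fold change above 1, FPKM above 1) follow the study's methods. Standard errors were obtained as the size of the fold change (log2) over the square root of the F statistic. Log2 CPM used a prior count of 2. With 3 plants against 3, p-values rest on the spread shared across genes. The fits were tested on simulated data.

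The gene and the lists were chosen with earlier results of these data known. The text names LOC121967395, the GH32 relatives, its 5 neighbours on each side above 1 FPKM, the 5 nearest profiles and, from each sugar list, the called genes or the gene with the highest mean FPKM. The 3A neighbours, the pair ratios and the plant order were added after values had been seen. Relatives were to be found by protein sequence, which was not used here, so the study's domain annotation of genes it had called higher took its place, and no calls are given for relatives. Alternatives used DESeq2 1.42.0 and limma 3.58.1.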

Additional observations from a re-analysis of the deposited data

How the results depend on the processing

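The log2 fold change of LOC121967395 (3.21) and the median of its 3 relatives (2.75) stayed within the spread between plants under other normalizations, no filter, DESeq2, limma on log2(FPKM + 0.1) and any library left out (2.96 to 3.41 and 2.66 to 2.85). On log2(FPKM + 1), where the pseudocount is as large as the control level, they were 2.49 and 2.21. The count of 2 sugar genes called was 16 with DESeq2, 1 with limma on log2(FPKM + 1), 6 at an adjusted p below 0.1, and 0 to 6 with single libraries left out. The neighbours on 3B and 3A gave 0 calls in each alternative. With single libraries left out, LOC121967392 ran from -0.11 to 0.10 (-0.09 without control plant 1 and -0.11 without exposed plant 2) and LOC121967394 from -0.22 to 0.037 (the latter without control plant 1), each reversal within its standard error of the main value. With the replicate number as a block, the log2 fold change of LOC121967395 was 3.19, the relatives' median 2.74 and the count of sugar genes 0, while calls over all genes fell from 452 higher and 424 lower to 65 and 71. Same-numbered plants share only a number: their deviations correlated at -0.02, 0.02 and -0.10, and control plant 1 correlated best with exposed plant 3. For the relatives, a count of calls, its thresholds and another protein identity were not run. LOC122052609 had 4, 6 and 17 counts in control plants 1, 2 and 3, which limits the precision of the 3A share there.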
